A study of Mus musculus with 4 samples.

Results

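The comparison described here set HT22 cells deprived of oxygen and glucose (OGD) against the same cells in normal culture, both infected with the control virus. HT22 is an immortalised mouse hippocampal neuronal line, labelled with the strain C57BL/6. The OGD cells were kept for 6 h in glucose-free medium with nitrogen in place of oxygen, and the reference cells stayed in normal culture. Both groups carried the same control adenovirus, given 2 h after seeding, so infection is shared and no uninfected library stands beside them. Each group held 1 library of total RNA. Genes were compared where their FPKM averaged 1 or more across both libraries, which left 12017 of 47069 genes listed. FPKM is the fragment count per kilobase of effective transcript length, scaled to the total of the library. The other 2 of the 4 libraries in the series carried an adenovirus labelled to knock down the long noncoding RNA AK046375, with and without OGD, and are used only to set a second OGD ratio beside this one. The series title and design text name a lentivirus and overexpression instead, which concerns those libraries and not the control virus pair.

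Oxygen deprivation stabilises hypoxia-inducible factor (HIF), a transcription factor that is held low by oxygen-dependent hydroxylases and that induces glucose transporters, glycolytic enzymes and angiogenic factors. Loss of glucose removes the carbon source of glycolysis and the signal that keeps the carbohydrate-responsive gene Txnip transcribed. Amino acid shortage, unfolded protein, heme shortage and oxidant stress act through other regulators, among them ATF4, heat shock factor, NRF2 and the metal-sensing factor MTF1, each with its own set of target genes.

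With 1 library on each side there is no spread between replicates, so nothing below carries a p-value. Folds of named genes carry 95% counting intervals, which compare these libraries and not the conditions, and which cover counting error only. The OGD library held 27539845 expected counts and the normal library 26002246. Genes at 1 FPKM or more numbered 11619 in OGD and 11819 in normal culture. Across the genes compared, which are not independent replicates, log2(FPKM + 1) had a Pearson correlation of 0.87 between the libraries.

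The neuronal label was not borne out by most neuronal markers in either library. Of 18 such genes, 9 were listed at 0 in OGD and 8 in normal culture, among them Rbfox3, Snap25, Dcx, Nefl, Nefm, Gap43, Gria2 and Elavl4 in both. The 18 summed to 77.4 FPKM in OGD and 121 FPKM in normal culture, nearly all from Uchl1, Tubb3, Eno2 and Ncam1. Tubb3, the neuronal beta-tubulin gene, was at 7.17 FPKM in OGD and 40.6 FPKM in normal culture, 5.66-fold lower (5.03 to 6.39). Vim, an intermediate filament gene of progenitors and mesenchymal cells, was at 4665 FPKM in OGD and 2470 FPKM in normal culture, and the fibroblast marker Col1a1 was at 224 FPKM in OGD and 393 FPKM in normal culture. The fibroblast gene Col1a2 was at 23.6 FPKM in OGD and 12.1 FPKM in normal culture, and Lum was at 0 in both. Of the other progenitor genes, Nes, Pax6 and Hes1 were above 5 FPKM in both libraries, with Nes at 39.2 FPKM in OGD and 46.8 FPKM in normal culture. Sox2, Notch1, Msi1 and Fabp7 were below 5 FPKM in both. Sox2 was at 0 in both libraries and Notch1 at 0.40 FPKM in OGD and 4.80 FPKM in normal culture. Of 9 microglial genes 5 were at 0 in both libraries, Itgam, Ptprc, P2ry12, Tyrobp and C1qa, while Tmem119 was at 20.1 FPKM in OGD and 43.8 FPKM in normal culture and Csf1r at 2.20 FPKM in OGD and 0.95 FPKM in normal culture. In RNA from a whole dish, fewer cells of a kind and less RNA per cell cannot be told apart.

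More genes were lower than higher in OGD. The log2 ratio of FPKM + 1, OGD over normal, had a median of -0.27 over the 12017 genes. A total of 1434 genes were at least 2-fold higher, which is 11.9% of those compared, and 3004 were at least 2-fold lower, which is 25%. The other 7579 lay within 2-fold. Beyond 8-fold there were 62 genes higher and 113 lower. This split depends on scaling: with trimmed-mean (TMM) scaling of the counts it was 1963 higher and 2379 lower, with a median of -0.05, and after removal of the trend with transcript length it was 2107 higher and 2069 lower. Median-of-ratios scaling put the median at -0.10. The counts of the gene lists below are read against 11.9% higher, 25% lower and the median of -0.27.

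**Figure D1:**
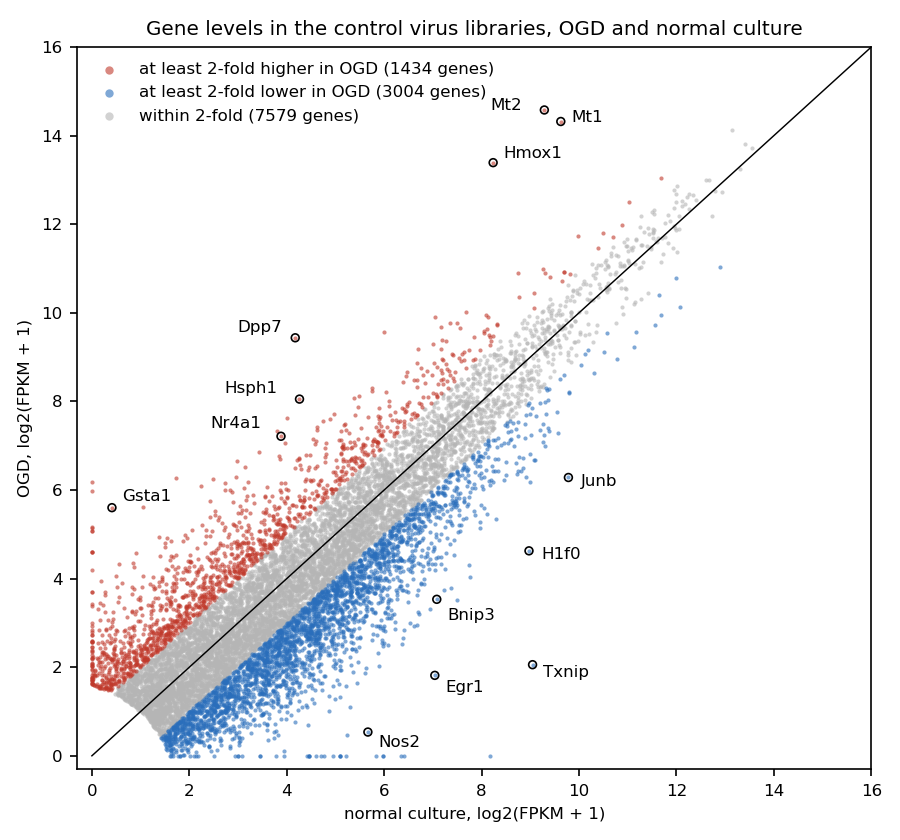
Level of each of the 12017 genes compared in the OGD library (vertical axis) and the normal library (horizontal axis), both as log2(FPKM + 1), with the line of equality. Red points are the 1434 genes at least 2-fold higher in OGD and blue points the 3004 at least 2-fold lower; Mt2, Mt1 and Hmox1 stand far above the line at high level, and Txnip far below it.

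Mt1 and Mt2, whose products are the cysteine-rich metallothioneins that bind zinc and copper, had the highest levels of all genes in OGD. Mt2 was at 24459 FPKM in OGD and 624 FPKM in normal culture, 39.2-fold higher (38.2 to 40.2). Mt1 was at 20427 FPKM in OGD and 789 FPKM in normal culture, 25.9-fold higher (25.3 to 26.5). Together with Hmox1 they took 2.84% of all counts in OGD and 0.0811% in normal culture. Slc30a1, which encodes the zinc exporter of the plasma membrane and is, like both metallothionein genes, a known target of the zinc sensor MTF1, was at 10.1 FPKM in OGD and 0.45 FPKM in normal culture, 22.6-fold higher (16.95 to 30.7). Mtf1 itself was at 4.77 FPKM in OGD and 3.48 FPKM in normal culture. The zinc importer gene Slc39a10 was at 0.67 FPKM in OGD and 7.47 FPKM in normal culture, 11.2-fold lower (8.99 to 14.1), and Slc39a1 was 6.38-fold lower (6.01 to 6.78). Of 19 metallothionein and zinc transport genes compared, 3 were higher and 2 lower, and the other 14 lay within 2-fold.

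Mt2 and Mt1 lie next to each other on the plus strand of chromosome 8 of GRCm38, Mt2 at 94172664 to 94173568 and Mt1 at 94179082 to 94180327. Their promoters are shown because both genes were higher together. MTF1 binds metal response elements, searched here with the letters TGCNCNC on either strand, which need not be an element at every match. The stretches below come from RefSeq promoter windows (build GRCm38.p6), run 5′ to 3′ on the strand of the gene and end before the RefSeq start, with each match to the core in capitals. RefSeq and GENCODE starts differ for some genes: those of Mt1, Hsph1 and Atf3 in RefSeq lie inside the GENCODE gene. The Mt2 stretch is chr8:94172375-94172594 and the Mt1 stretch is chr8:94179046-94179088.
Mt2: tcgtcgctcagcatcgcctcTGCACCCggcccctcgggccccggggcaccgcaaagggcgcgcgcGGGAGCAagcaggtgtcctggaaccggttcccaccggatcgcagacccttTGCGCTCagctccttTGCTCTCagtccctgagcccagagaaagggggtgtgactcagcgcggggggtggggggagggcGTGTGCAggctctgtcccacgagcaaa
Mt1: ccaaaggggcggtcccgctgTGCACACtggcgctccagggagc
The Mt2 window held 6 matches, 5 of them before the start, and the Mt1 window held 3, with 1 before the start. A run of letters this short is common: 53.6% of all 27025 genes with a window held it.

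Hmox1 encodes heme oxygenase 1, which splits heme into iron, carbon monoxide and biliverdin. It was at 10729 FPKM in OGD and 301 FPKM in normal culture, 35.7-fold higher (34.9 to 36.5), and lies on chromosome 8 at 75093621 to 75100589. The genes of the ferritin subunits that store iron were abundant in both libraries. Ftl1 was at 17887 FPKM in OGD and 9030 FPKM in normal culture, with a log2 ratio of 0.99, just within 2-fold on this scale and past it with TMM scaling at 1.11. Fth1 was at 7458 FPKM in OGD and 4100 FPKM in normal culture. Tfrc, the receptor that takes up iron-loaded transferrin, was at 4.62 FPKM in OGD and 1.27 FPKM in normal culture, 3.64-fold higher (2.93 to 4.57).

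Hmox1 is also a target of NRF2, the factor that switches on glutathione and antioxidant genes, and the NRF2 list held members in both directions. Of 41 genes compared, 10 were higher and 6 lower, with a median of 0.16. Over all genes 11.9% were higher and 25% lower, with a median of -0.27. Gclc, the catalytic subunit of the enzyme that limits glutathione synthesis, was at 52.9 FPKM in OGD and 4.39 FPKM in normal culture, 12.1-fold higher (10.8 to 13.4). Its modifier subunit Gclm was at 230 FPKM in OGD and 204 FPKM in normal culture. Sqstm1, the autophagy receptor p62, was at 2020 FPKM in OGD and 615 FPKM in normal culture, 3.29-fold higher (3.23 to 3.34). The glutathione transferase genes Gsta4 and Gsto1 were also higher, at 387 and 568 FPKM in OGD and 125 and 214 FPKM in normal culture. In the other direction Tkt was at 85.1 FPKM in OGD and 309 FPKM in normal culture. Nqo1, Slc7a11 and Txnrd1, common readouts of NRF2, lay within 2-fold. Nqo1 was at 42.2 FPKM in OGD and 50.2 FPKM in normal culture, a direction that turned to 0.12 on the log2 scale after removal of the length trend. Slc7a11, the cystine importer, was at 6.23 FPKM in OGD and 5.49 FPKM in normal culture, and Txnrd1, a thioredoxin reductase, was at 109 FPKM in OGD and 79.1 FPKM in normal culture. Gsta1, a glutathione transferase gene outside the list, was at 47.5 FPKM in OGD and 0.33 FPKM in normal culture on 764 and 5 expected counts; it has a close paralog, Gsta2, so reads could be shared. Among 23 antioxidant enzymes 0 were higher and 5 lower, and the superoxide dismutase gene Sod1 was at 1628 FPKM in OGD and 1551 FPKM in normal culture.

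**Figure D2:**
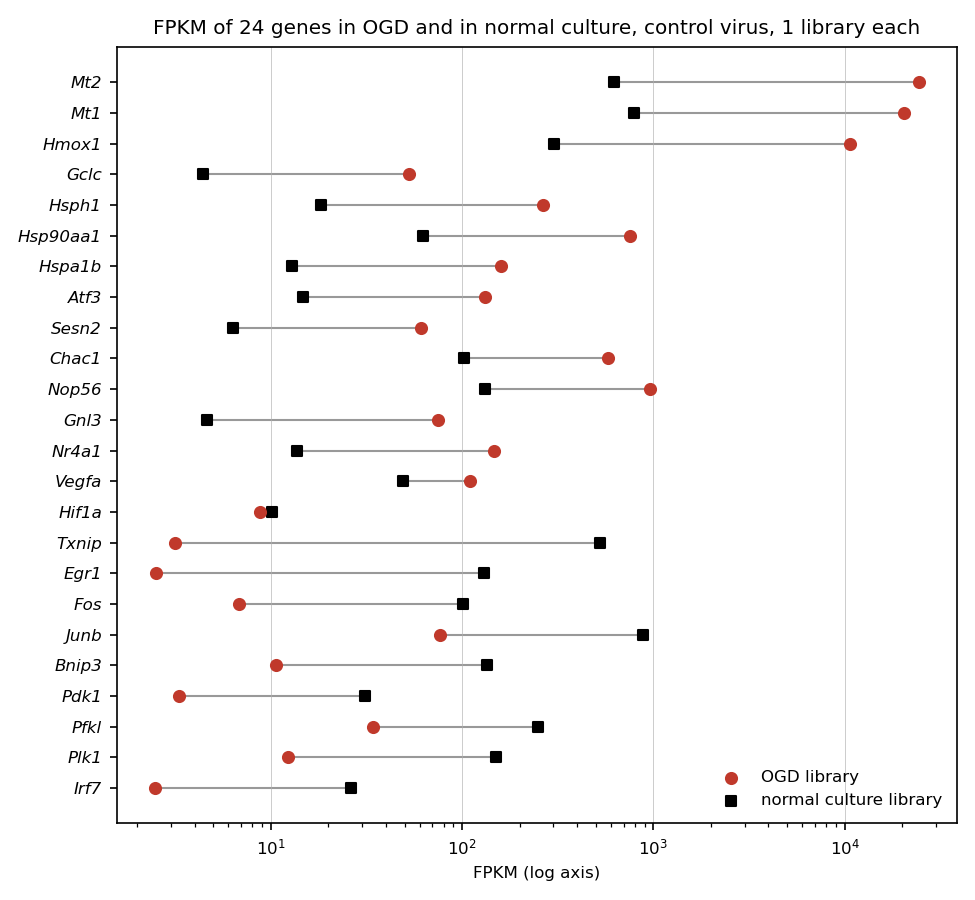
FPKM of 24 named genes on a log axis in the OGD library (red circles) and the normal library (black squares), 1 library each, with a line joining the values of each gene. From Mt2 down to Vegfa the circle lies to the right of the square, Hif1a is nearly level, and from Txnip down the circle lies to the left.

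Heat shock chaperones, which refold damaged proteins, were largely higher. The list was mostly cytosolic but also held mitochondrial chaperones and heat shock factor genes. Of 36 compared, 18 were at least 2-fold higher and 1, Hspa2, was lower, with a median of 1.00. The list took 2.76% of all counts in OGD and 1.12% in normal culture. The HSP110 gene Hsph1, a nucleotide exchange factor for HSP70, was at 264 FPKM in OGD and 18.2 FPKM in normal culture, 14.5-fold higher (13.6 to 15.5). The stress-inducible HSP70 gene Hspa1b was at 160 FPKM in OGD and 12.9 FPKM in normal culture, 12.4-fold higher (11.6 to 13.3), and Hspa1a was at 62.8 FPKM in OGD and 5.64 FPKM in normal culture. These HSP70 genes are near-identical copies, so the split of reads between them is uncertain. Hsp90aa1, the inducible HSP90, was at 758 FPKM in OGD and 62.7 FPKM in normal culture, 12.1-fold higher (11.6 to 12.6). Constitutive forms showed smaller ratios. Hspa8 was at 8376 FPKM in OGD and 3265 FPKM in normal culture, 2.56-fold higher (2.55 to 2.58). Hsp90ab1 was at 5090 FPKM in OGD and 2984 FPKM in normal culture, 0.77 on the log2 scale and past 2-fold with TMM scaling at 1.29. The mitochondrial chaperonin genes Hspe1 and Hspd1 were 5.08-fold and 3.15-fold higher. Hsf1, the master regulator of these genes, was at 48.8 FPKM in OGD and 55.6 FPKM in normal culture. Zfand2a, a proteasome-associated stress gene, was at 91.2 FPKM in OGD and 7.78 FPKM in normal culture, 11.7-fold higher (10.7 to 12.9).

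Genes of endoplasmic reticulum (ER) chaperones and the unfolded protein response did not show this pattern: of 32 compared 3 were higher and 4 lower. Hspa5, the main ER chaperone BiP, was at 401 FPKM in OGD and 447 FPKM in normal culture, and its direction turned with TMM scaling at 0.19. Xbp1, a transcription factor of the unfolded protein response, was at 21.5 FPKM in OGD and 91.0 FPKM in normal culture, 4.23-fold lower (3.94 to 4.55). Herpud1, an ER stress gene that ATF4 also induces, was 2.71-fold higher.

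Stretches of the Hspa1b and Hsph1 promoters are shown because both genes were over 12-fold higher and their windows held a match before the start. Heat shock factor binds arrays of a short element, searched here on both strands as GAANNTTC and in the inverted form TTCNNGAA, with matches in capitals. The Hspa1b stretch is chr17:34959315-34959362 and the Hsph1 stretch is chr5:149636342-149636389, both on the minus strand in GRCm38.p6 and read from RefSeq windows 5′ to 3′.
Hspa1b: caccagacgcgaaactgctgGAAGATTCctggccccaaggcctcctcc
Hsph1: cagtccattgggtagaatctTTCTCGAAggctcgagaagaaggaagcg
The same search found 0 matches in either RefSeq window of Dnajb1, an HSP40 gene at 148 FPKM in OGD and 72.4 FPKM in normal culture. The first form was in 9.04% and the inverted form in 9.60% of all genes with a window.

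Integrated stress response genes, which ATF4 and its partner CHOP switch on when translation initiation is curbed, were among the most uniformly higher. Of 30 compared, 18 were higher and 1, Pycr1, was lower, with a median of 1.44. Atf4 was at 744 FPKM in OGD and 263 FPKM in normal culture, 2.83-fold higher (2.76 to 2.89). Ddit3, which encodes CHOP, was at 491 FPKM in OGD and 146 FPKM in normal culture, 3.36-fold higher (3.20 to 3.52). The repressor gene Atf3 was at 132 FPKM in OGD and 14.7 FPKM in normal culture, 8.98-fold higher (8.20 to 9.86). Sesn2, a stress-induced inhibitor of the growth kinase mTORC1, was at 60.8 FPKM in OGD and 6.36 FPKM in normal culture, 9.55-fold higher (8.75 to 10.5). Chac1, which degrades glutathione, was at 576 FPKM in OGD and 102 FPKM in normal culture, 5.63-fold higher (5.44 to 5.82). The cysteine-making enzyme gene Cth was 10.5-fold higher, the secreted glycoprotein gene Stc2 10.6-fold, and the mitochondrial folate enzyme gene Mthfd2 6.28-fold. Fgf21, a secreted metabolic hormone, was at 30.4 FPKM in OGD and 4.10 FPKM in normal culture. Ppp1r15a, the phosphatase subunit GADD34 that restores translation, was 4.92-fold higher. Members that did not pass 2-fold included the secreted stress marker Gdf15, at 30.0 FPKM in OGD and 54.6 FPKM in normal culture, and Asns, asparagine synthetase, at 192 FPKM in OGD and 110 FPKM in normal culture, with a log2 ratio of 0.81 that was 1.09 with TMM scaling.

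Stretches of the Chac1 and Atf3 promoters are shown because ATF4 and its partners bind the CEBP-ATF response element, searched as the core TGATGNAA on both strands and put in capitals, and because these windows held a match before the start. The Chac1 stretch is chr2:119351029-119351076 on the plus strand and the Atf3 stretch is chr1:191183416-191183463 on the minus strand, from RefSeq windows of GRCm38.p6.
Chac1: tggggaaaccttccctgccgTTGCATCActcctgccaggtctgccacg
Atf3: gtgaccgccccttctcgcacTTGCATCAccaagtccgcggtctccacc
The same search found 0 matches in the windows of Sesn2 and Ddit3, and 1 match in that of Trib3, which was not before the start; all were at least 2-fold higher in OGD. The core was in 4.51% of all genes with a window.

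Genes that feed amino acids to translation were also often higher. Of 19 amino acid transporters compared 9 were higher and 3 lower, with a median of 0.88. Slc38a2, a neutral amino acid carrier, was at 167 FPKM in OGD and 45.2 FPKM in normal culture, 3.70-fold higher (3.59 to 3.82). Slc3a2, the shared heavy chain of several carriers, was 2.64-fold higher. The lysosomal carrier gene Slc38a7 was 3.75-fold higher, while Slc38a10 was 5.71-fold lower and Slc43a2 6.21-fold lower. Slc7a3, a carrier of cationic amino acids, had 128 expected counts in OGD and 1 in normal culture. Aminoacyl-tRNA synthetases, which charge tRNAs, had 7 of 21 higher and 1 lower. Rars was at 159 FPKM in OGD and 33.6 FPKM in normal culture, 4.73-fold higher (4.46 to 5.03), and the exception, Qars, was 3.07-fold lower. Of 16 serine, glycine and one-carbon enzymes 6 were higher and 2 lower.

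Ribosome biogenesis genes, which work in the nucleolus to make and modify ribosomal RNA, were the list with the most members higher. Of 37 compared 25 were higher and 0 lower, with a median of 1.44. Nop56, a core protein of box C/D small nucleolar particles, was at 956 FPKM in OGD and 132 FPKM in normal culture, 7.25-fold higher (6.98 to 7.54). Ncl, nucleolin, was at 317 FPKM in OGD and 52.9 FPKM in normal culture, 5.99-fold higher (5.78 to 6.21). Gnl3, nucleostemin, was at 74.4 FPKM in OGD and 4.63 FPKM in normal culture, 16.1-fold higher (13.9 to 18.6). The small-subunit processing genes Wdr43 and Utp20 were 5.72-fold and 9.62-fold higher. Nop56, Ncl and Gnl3 host small nucleolar RNAs in their introns, and Gnl3 overlaps Pbrm1 and Nop56 overlaps Idh3b on the opposite strand. The sources used here do not say whether counting used strand, so levels of genes that overlap on opposite strands are uncertain. Others named here with such a partner include Mt2 (Gm45774), Slc30a1 (1700034H15Rik), Junb (Prdx2), H1f0 (Gm49544), Bnip3 (Gm18258 and Gm45507), Irf7 (Phrf1), Tap1 (Psmb9), Pfkm (Senp1), Pfkp (Pitrm1), Ampd3 (Rnf141) and Tpr (Odr4 and Prg4), and Hspe1 and Hspd1 overlap each other.

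Ribosomal protein genes lay mostly within 2-fold. Of 84 compared 5 were higher and 1, Rpl39, was lower, with a median of 0.32. They took 13.2% of counts in OGD and 10.9% in normal culture. Rpl39 was at 760 FPKM in OGD and 2290 FPKM in normal culture, 3.01-fold lower (2.94 to 3.09). Translation factors had 6 of 37 higher and 0 lower. The eIF2 beta subunit gene Eif2s2 was at 88.1 FPKM in OGD and 18.7 FPKM in normal culture, 4.71-fold higher (4.41 to 5.03), and Eif1, which guards start codon choice, was 3.05-fold higher. SR and hnRNP splicing factors had 8 of 35 higher and 0 lower. Srsf2 was at 404 FPKM in OGD and 88.1 FPKM in normal culture, 4.59-fold higher (4.40 to 4.79), and Hnrnph1 was 4.11-fold higher.

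The genes that HIF is known for were mostly lower or within 2-fold. Hif1a, the oxygen-regulated subunit of HIF-1, was at 8.80 FPKM in OGD and 10.2 FPKM in normal culture, and its direction turned with TMM scaling at 0.21. HIF-1 is controlled largely at the protein level, which these data do not measure. Its dimer partner gene Arnt was at 7.10 FPKM in OGD and 17.7 FPKM in normal culture, 2.49-fold lower (2.26 to 2.75), and just within 2-fold with TMM scaling at -0.98. Of 37 hypoxia-induced genes outside glycolysis, 5 were higher and 16 lower, with a median of -0.86. Bnip3, a mitophagy receptor and a classic HIF target, was at 10.6 FPKM in OGD and 134 FPKM in normal culture, 12.7-fold lower (11.3 to 14.3). Pdgfb, a growth factor for vessel mural cells, was at 0.61 FPKM in OGD and 20.7 FPKM in normal culture, 33.7-fold lower (25.2 to 46.3). Those that were higher included Vegfa, the main angiogenic factor, at 109 FPKM in OGD and 48.8 FPKM in normal culture, 2.24-fold higher (2.13 to 2.36). Ndrg1, a stress-responsive gene, was at 656 FPKM in OGD and 152 FPKM in normal culture, 4.30-fold higher (4.18 to 4.42). Adm, another common HIF target, had 0 counts in both libraries, and the HIF hydroxylase genes Egln1 and Egln3 lay within 2-fold.

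Glycolysis genes were mostly lower. Of 26 genes of glucose transport and glycolysis 1 was higher and 14 lower, with a median of -1.07. All genes of muscle, liver and platelet phosphofructokinase, which commits sugar to glycolysis, were lower: Pfkl was at 34.2 FPKM in OGD and 250 FPKM in normal culture, 7.33-fold lower (7.03 to 7.64), Pfkm was 8.06-fold lower and Pfkp 4.71-fold lower. Pdk1, the kinase that shuts pyruvate out of the citric acid cycle in hypoxia, was at 3.30 FPKM in OGD and 31.1 FPKM in normal culture, 9.40-fold lower (8.27 to 10.7). Ldha, lactate dehydrogenase A, was at 1774 FPKM in OGD and 4068 FPKM in normal culture, 2.29-fold lower (2.27 to 2.32), and within 2-fold with TMM scaling at -0.87. Gapdh was at 4670 FPKM in OGD and 6809 FPKM in normal culture. The single member that was higher was Hk2, hexokinase 2, at 33.6 FPKM in OGD and 11.5 FPKM in normal culture, 2.93-fold (2.71 to 3.17). The glucose transporter gene Slc2a1 was at 83.6 FPKM in OGD and 62.9 FPKM in normal culture. Pentose phosphate and citric acid cycle enzymes had 0 of 31 higher and 13 lower, with Idh1 at 3.10 FPKM in OGD and 33.1 FPKM in normal culture, 10.7-fold lower (9.01 to 12.7).

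Stretches of the Bnip3 and Pgk1 promoters are shown because both hold the letters of a hypoxia response element, ACGTG on either strand, while neither gene was higher in OGD. Pgk1, phosphoglycerate kinase, was at 530 FPKM in OGD and 980 FPKM in normal culture. The Bnip3 stretch is chr7:138909589-138909634 on the minus strand and the Pgk1 stretch is chrX:106186930-106186993 on the plus strand, from RefSeq windows of GRCm38.p6 with matches in capitals. In Bnip3 the matches on the opposite strands overlap.
Bnip3: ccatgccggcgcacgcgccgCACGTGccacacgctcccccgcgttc
Pgk1: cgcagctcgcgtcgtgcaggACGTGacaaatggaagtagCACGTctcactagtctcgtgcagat
The same search found 0 matches in the Txnip window. A second hypoxia form, GCGTG, which is not put in capitals, had 2 matches in the Txnip window, 3 in that of Bnip3 and 0 in that of Pgk1. The letters ACGTG were in 21.8% and GCGTG in 35.2% of all genes with a window.

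Set over groups of genes, the motif counts were as follows. A total of 329 genes were at least 4-fold higher in OGD, 2.74% of those compared, and 706 were at least 4-fold lower, 5.88%. A RefSeq window was found for 195 of the higher group, 508 of the lower group and 8445 of all genes compared. The hypoxia element ACGTG was in 38.5% of the 195 and 25.4% of the 508, against 30.3% of the 8445. The inverted heat shock element was in 13.3%, 7.48% and 8.23% in the same order, and the other form in 10.3%, 7.09% and 6.83%. The CEBP-ATF core was in 5.64%, 2.17% and 2.46%, on 11 genes each in the higher and lower groups, and the cyclic AMP element TGACGTCA in 6.15%, 2.36% and 3.6%. The antioxidant response core TGACNNNGC was in 21.5%, 19.5% and 17.2%, and the metal response letters TGCNCNC in 63.1%, 66.7% and 64.5%. For the second hypoxia form, GCGTG, the values were 54.4%, 56.9% and 58.3%. The AP-1 site TGANTCA was in 6.15%, 7.68% and 6.03%, and the sterol element TCACNCCAC in 1.54%, 3.15% and 1.34%. The serum response element was searched only as a single exact run of letters with no variable base. That run was in 0 genes of either group and 4 genes of all compared. Other forms of the element were not searched, so these counts do not show how common it was. A match is a run of letters and not a bound site.

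Txnip had the lowest ratio of all genes outside small RNAs and predicted genes. It encodes the alpha-arrestin that limits glucose uptake and binds thioredoxin, and its transcription follows glucose through the carbohydrate-responsive factors MondoA and ChREBP. It was at 3.16 FPKM in OGD and 528 FPKM in normal culture, on 112 and 22249 expected counts, 167-fold lower (138 to 203). It lies on chromosome 3 at 96557957 to 96561883, where Gm15441 overlaps it on the opposite strand. The related arrestin genes Arrdc1 and Arrdc2 were 5.37-fold and 6.90-fold lower, and Arrdc3 was at 1.03 FPKM in OGD and 1.75 FPKM in normal culture. Of 7 glucose-sensing arrestins and partners compared 4 were lower and 0 higher.

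Other genes far lower in OGD spanned several functions. Nos2, the inducible nitric oxide synthase, was at 0.45 FPKM in OGD and 49.8 FPKM in normal culture, 112-fold lower (84.3 to 151). H1f0, a linker histone of differentiated cells, was at 23.7 FPKM in OGD and 501 FPKM in normal culture, 21.2-fold lower (20.04 to 22.4). Socs3, the feedback inhibitor of cytokine signalling through STAT3, was at 15.5 FPKM in OGD and 217 FPKM in normal culture, 13.99-fold lower (13.1 to 15.0). Metabolic enzyme genes in this group were Ampd3, AMP deaminase, 33.2-fold lower, Aldh1a1, a retinaldehyde dehydrogenase, 21.8-fold, H6pd, the pentose phosphate enzyme of the ER, 18.97-fold, Acsf2, an acyl-CoA synthetase family member, 15.5-fold, and Acads, a short-chain acyl-CoA dehydrogenase, 13.6-fold. Prelp, a matrix proteoglycan gene, was 19.9-fold lower. Among the genes far higher, Dpp7, which encodes a lysosomal dipeptidyl peptidase, was at 692 FPKM in OGD and 17.1 FPKM in normal culture, 40.6-fold higher (37.0 to 44.6). Il1rl1, the receptor of interleukin-33, was at 196 FPKM in OGD and 15.0 FPKM in normal culture, 13.1-fold higher (12.2 to 14.1). Gtf2h1, a subunit of the general factor TFIIH, was 14.4-fold higher and Tpr, a nuclear pore protein gene, 11.4-fold. Impact, an inhibitor of the ATF4 pathway kinase GCN2, was at 18.2 FPKM in OGD and 0.82 FPKM in normal culture.

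Immediate early genes, which growth factors and stress induce within minutes to hours, split. Of 36 compared 13 were higher and 13 lower. Egr1, a zinc finger factor, was at 2.52 FPKM in OGD and 131 FPKM in normal culture, 51.7-fold lower (45.5 to 59.0). Fos was at 6.78 FPKM in OGD and 101 FPKM in normal culture, 14.9-fold lower (13.1 to 17.01), and Junb was at 76.8 FPKM in OGD and 879 FPKM in normal culture, 11.4-fold lower (11.05 to 11.9). Higher were the orphan nuclear receptor gene Nr4a1, at 147 FPKM in OGD and 13.7 FPKM in normal culture, 10.7-fold (9.98 to 11.5), the FOS family genes Fosl1, 7.25-fold, and Fosb, 8.04-fold, and Myc, at 230 FPKM in OGD and 81.0 FPKM in normal culture, 2.84-fold (2.74 to 2.95). Within the FOS and JUN family, Fosl1 and Fosb were higher, and Fos, Junb, Jun and Jund were lower. Jun was within 2-fold after removal of the length trend, at -0.87 on the log2 scale. Fosl2 lay within 2-fold at -0.51. Of 20 MAP kinase phosphatases and feedback inhibitors 2 were higher and 5 lower, with Dusp1 at 132 FPKM in OGD and 187 FPKM in normal culture. Of 12 Kruppel-like factors 1 was higher and 6 lower, led by Klf2 at 4.85 FPKM in OGD and 63.1 FPKM in normal culture, 13.0-fold lower (11.3 to 15.0).

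Inflammatory and interferon genes were largely lower. Interferon-stimulated and antigen presentation genes had 17 of 22 lower and 0 higher, with a median of -1.28, the lowest among lists of 20 or more members compared. Irf7, a transcription factor that amplifies interferon, was at 2.47 FPKM in OGD and 26.3 FPKM in normal culture, 10.6-fold lower (8.44 to 13.6). Tap1, a peptide transporter for antigen presentation, was at 2.28 FPKM in OGD and 24.1 FPKM in normal culture, 10.5-fold lower (8.92 to 12.5). NF-kB and inflammatory genes had 13 of 26 lower and 4 higher. The feedback inhibitor Nfkbia was at 32.8 FPKM in OGD and 187 FPKM in normal culture, 5.71-fold lower (5.37 to 6.07), and the precursor gene Nfkb2 was 6.00-fold lower. In the other direction Ccl2, a monocyte chemokine, was at 727 FPKM in OGD and 283 FPKM in normal culture, 2.57-fold higher (2.49 to 2.66), and Ptgs2, the inducible cyclooxygenase, was 2.41-fold higher.

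Cell death regulators of the BCL2 family had 8 of 16 lower and 1 higher. The single higher member was Bax, a pore-forming effector, at 578 FPKM in OGD and 143 FPKM in normal culture, 4.04-fold (3.86 to 4.22). Bmf, a pro-death member, was at 0.25 FPKM in OGD and 7.11 FPKM in normal culture, and the survival gene Bcl2l1 was 2.62-fold lower but within 2-fold after removal of the length trend at -0.95. Mcl1, another survival gene, was at 40.6 FPKM in OGD and 39.8 FPKM in normal culture. Among 26 p53 targets and CDK inhibitors 6 were higher and 4 lower: Mdm2, the ubiquitin ligase for p53, was 3.63-fold higher, the kinase gene Plk3 3.67-fold higher and Cdkn2d, which inhibits CDK4 and CDK6, 8.12-fold lower. Cdkn1a was at 33.4 FPKM in OGD and 39.2 FPKM in normal culture, a direction that turned with TMM scaling at 0.14.

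Mitotic genes and replication genes differed in their counts. Of 38 G2/M genes compared 17 were lower and 4 higher, with a median of -0.85. Plk1, the kinase that drives entry into mitosis, was at 12.3 FPKM in OGD and 150 FPKM in normal culture, 12.1-fold lower (11.1 to 13.2). Bub1b, a spindle checkpoint gene, was at 4.73 FPKM in OGD and 81.1 FPKM in normal culture, 17.2-fold lower (15.4 to 19.1), and Cdk1 was at 161 FPKM in OGD and 585 FPKM in normal culture, 3.62-fold lower (3.50 to 3.76). Mki67, a marker of cycling cells, was at 5.14 FPKM in OGD and 2.04 FPKM in normal culture, with a log2 ratio of 1.01 that was 0.83 after removal of the length trend. Of 44 DNA replication and G1/S genes 5 were higher and 2 lower, with a median of 0.13. Cdc6, which loads the replicative helicase, was 2.73-fold higher and E2f2 2.90-fold. Top2a was at 83.8 FPKM in OGD and 70.1 FPKM in normal culture.

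**Figure D3:**
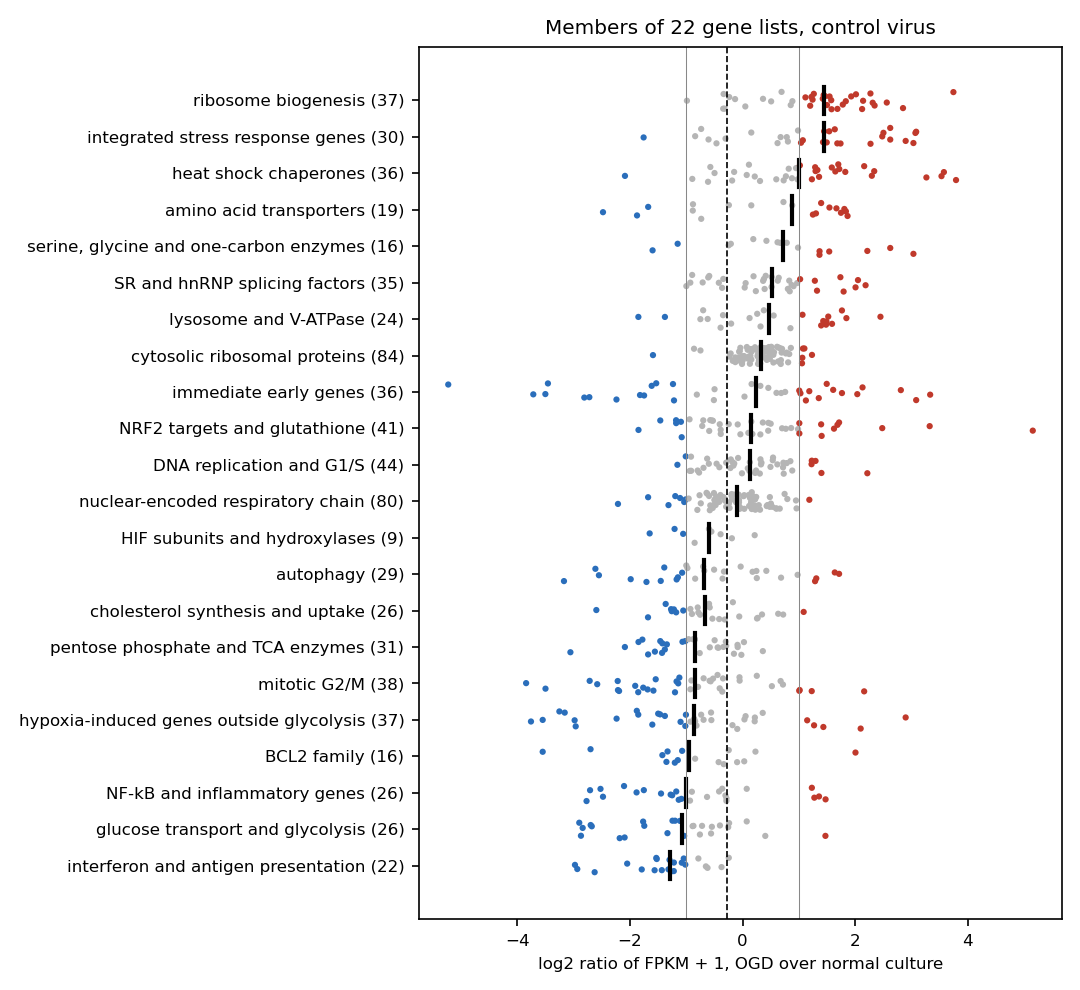
Log2 ratio of FPKM + 1, OGD over normal culture, for the members of 22 gene lists, with the number compared in parentheses. Each point is a gene, red when at least 2-fold higher and blue when at least 2-fold lower, black bars are list medians, and the dashed line is the median of -0.27 over all genes; ribosome biogenesis at 1.44 and interferon genes at -1.28 mark the ends.

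Lysosomal genes were more often higher than lower. Of 24 lysosome and V-ATPase genes 10 were higher and 2 lower, with a median of 0.47. The proton pump subunit genes Atp6v1c1 and Atp6v0c were 5.71-fold and 3.01-fold higher. Of 29 autophagy genes 4 were higher and 10 lower, a ratio of lower to higher close to that over all genes. Tfeb, a master regulator of lysosomal genes, was itself at 2.81 FPKM in OGD and 33.3 FPKM in normal culture, 11.8-fold lower (9.85 to 14.3). Of 15 polyubiquitin and ubiquitin stress genes 4 were higher and 1 lower, and Ubb, a polyubiquitin gene, was 2.80-fold higher.

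Lipid genes had few members higher. Of 26 cholesterol synthesis and uptake genes 8 were lower and 1 higher, with a median of -0.67, and the sterol regulators Srebf2 and Srebf1 were 3.32-fold and 3.91-fold lower. Mvd, a mevalonate pathway enzyme, was at 14.9 FPKM in OGD and 94.9 FPKM in normal culture, 6.38-fold lower (5.87 to 6.95). Fatty acid synthesis and activation genes had 6 of 17 lower and 0 higher, with the desaturase gene Scd2 4.13-fold lower. Nuclear-encoded respiratory chain genes stayed mostly within 2-fold, with 1 of 80 higher and 7 lower. Of 13 genes of the mitochondrial genome 5 were higher and 1 lower. The complex I gene mt-Nd1 was at 877 FPKM in OGD and 162 FPKM in normal culture, 5.41-fold higher (5.21 to 5.62), and the exception, the cytochrome oxidase gene mt-Co1, was at 397 FPKM in OGD and 1274 FPKM in normal culture, 3.21-fold lower (3.15 to 3.27).

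Secreted and matrix genes had members in both directions, with more of them lower than higher, as over all genes. Of 30 TGF-beta and BMP signalling genes 11 were lower and 2 higher. Tgfb1 was at 12.4 FPKM in OGD and 74.2 FPKM in normal culture, 6.00-fold lower (5.43 to 6.63), and the BMP target gene Id3 was 5.16-fold lower. Grem1, a secreted BMP antagonist, was at 45.1 FPKM in OGD and 4.75 FPKM in normal culture, 9.50-fold higher (8.65 to 10.4). Of 23 matrix proteases and inhibitors 10 were lower and 3 higher: Mmp11 was 9.29-fold lower and Plau, urokinase, 6.19-fold higher. Of 27 collagens, laminins and integrins 9 were lower and 2 higher. The laminin receptor gene Itga6 had 365 counts in OGD and 248 in normal culture; its log2 ratio was 2.89 from FPKM and 0.44 from library-scaled counts, and the deposited effective lengths differed between the libraries by -2.66 on the log2 scale.

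Higher and lower genes differed in the base composition of their transcripts. Median GC content was 48.5% among genes at least 2-fold higher, 53.9% among those at least 2-fold lower and 51.2% over all genes compared. With the genes split by GC content into 5 bins of equal size, 20.1% were higher and 13.6% lower in the bin of lowest GC, and in the bin of highest GC 7.02% were higher and 40% lower. Across genes, the Spearman correlation of the log2 ratio with GC was -0.26, with transcript length -0.05 and with gene span -0.06. The part of GC content in the counts of the gene lists was not tested. Single-exon genes made up 13.4% of the higher and 6.4% of the lower group, and long noncoding RNA genes 7.61% and 2.94%.

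**Figure D4:**
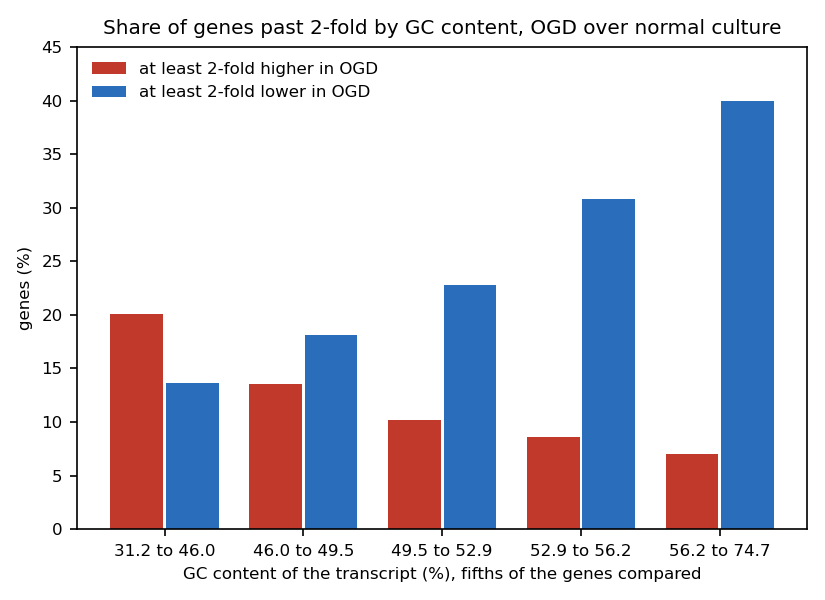
Percentage of genes at least 2-fold higher (red, left bars) and at least 2-fold lower (blue, right bars) in OGD, in 5 equal bins of the genes compared, ordered by GC content of the transcript (horizontal axis, %). The lower share is 13.6% in the first bin and 40% in the last, and the higher share 20.1% and 7.02%.

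The pair of libraries with the knockdown-labelled virus gave a second OGD ratio that shares no library with this one. It differs in the virus as well and also has 1 library a side, so it is not a replicate. Over the same 12017 genes, 3872 were at least 2-fold higher there, 32.2%, and 2507 at least 2-fold lower, 20.9%, with a median of 0.29. Of the 1434 genes higher with the control virus 1044, or 72.8%, were also higher in that pair, which is 27% of that pair's higher genes, and 17 were lower. Of the 3004 lower with the control virus 1233, or 41%, were also lower there, which is 49.2% of that pair's lower genes, and 273 were higher. The count-weighted mean transcript length was 1815 nt in OGD and 1835 nt in normal culture with the control virus, and 2153 nt in OGD and 1545 nt in normal culture with the knockdown-labelled virus, so the second pair also differed in the lengths sampled.

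Some of the genes described above had ratios of the same sign in both pairs and others did not. The log2 ratio of Hmox1 was 5.15 in the control virus pair and 4.71 in the knockdown-labelled pair, that of Hspa1b 3.53 and 5.59, Atf3 3.08 and 4.36, and Gclc 3.32 and 4.89. Mt2 had 5.29 and 2.47 and Mt1 4.69 and 2.35. Among lower genes Txnip had -6.99 in the control virus pair and -3.46 in the other, and H1f0 -4.35 and -4.38. Opposite signs were found for Bax, at 2.01 in the control virus pair and -0.25 in the other, Ftl1, at 0.99 and -0.88, and Dusp1, at -0.50 and 3.01. Hspa5 had -0.16 and 2.93, but its sign in the control virus pair turned with TMM scaling at 0.19. Over all genes, 11.9% were higher and 25% lower with the control virus, and 32.2% and 20.9% with the knockdown-labelled virus. Ribosome biogenesis had 25 of 37 higher in each pair. Hypoxia-induced genes outside glycolysis had 5 higher and 16 lower of 37 with the control virus. With the knockdown-labelled virus 14 were higher and 7 lower, near the shares over all genes in that pair. The 84 ribosomal protein genes split 5 higher to 1 lower with the control virus, but 7 to 49 with the other. Nuclear-encoded respiratory chain genes split 1 to 7 and 2 to 53 in the same order. For ER chaperones and the unfolded protein response the split was 3 to 4 and 18 to 2. In G2/M the counts were 4 higher and 17 lower with the control virus, and 7 higher and 10 lower with the other. None of these differences between the pairs was tested.

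**Figure D5:**
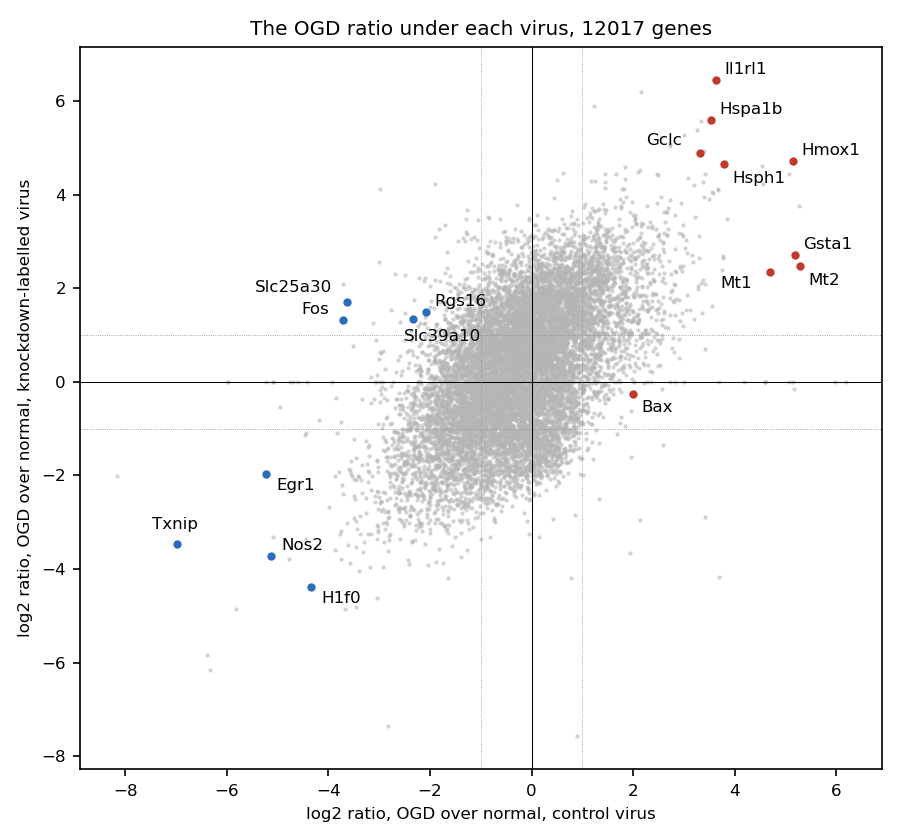
Log2 ratio of FPKM + 1, OGD over normal culture, in the control virus pair (horizontal axis) and in the knockdown-labelled pair (vertical axis) for 12017 genes, with dotted lines at 2-fold and named genes in red (higher with the control virus) or blue (lower). Hmox1, Hspa1b and Il1rl1 lie at the upper right and Txnip and Nos2 at the lower left, while Fos, Slc25a30, Rgs16 and Slc39a10 lie at the upper left.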

How the data were processed

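The members and the gene lists were chosen with earlier results of these data known. Per the labels, RNA was fragmented to about 200 bp, its second strand marked with dUTP, and amplified for 12 PCR cycles. The submitters' processing notes name TopHat2 and mm10; the sources used here name no counting tool, annotation or version. For each of 47069 genes the authors deposited 2 lengths (full and effective) with expected counts, FPKM and TPM, per the file headers. The deposited expected counts were whole numbers. The TPM deposited by the authors was not used. The authors' FPKM was used as deposited. In the authors' comparison tables, 4 columns of per-library values were not used. AK046375 was not analysed here.

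Symbols were found for 46488 identifiers. Positions and GC content came from GENCODE M21 on GRCm38, the assembly of mm10, and promoter windows from RefSeq. The ratio was log2 of (FPKM + 1) in OGD over that in normal culture, for genes averaging 1 FPKM or more, and genes were counted past 2-fold. Adding 1 FPKM understates the ratio of low genes. Folds printed for genes are of FPKM without that 1, with exact conditional binomial 95% intervals from the counts that take lengths as known. PCR copies were not marked by molecular identifiers, so reads are not independent and intervals cover counting error only. At 1 kb, 3 counts are 0.109 FPKM in OGD and 0.115 FPKM in normal culture.

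Named genes were the 20 largest and 20 smallest ratios among genes at 5 FPKM and 100 counts or more in either library whose library-scaled counts also differed 2-fold in that direction, leaving out small RNAs, predicted genes and pseudogenes; up to 5 members of each of 59 lists with the largest ratio in size; genes fixed for each list; and the 10 most abundant genes of each library. Hspa2, Pycr1, Gsta2, Gsta4, Gsto1, Tiparp, Jund and Fosl2 were named after their values were seen. Calculations used Python 3.11.15, pandas 2.3.3, scipy 1.17.1 and statsmodels 0.14.6, and were tested on simulated data. Some list members are not reported here.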

Additional observations from a re-analysis of the deposited data

Results flagged for a closer look

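Named genes were looked up whose ratios lay past 4-fold in this pair and past 2-fold the other way in the knockdown-labelled pair. There were 4 of them, the groups hold 1 library each, and the difference between the pairs was not tested. Fos, the immediate early transcription factor gene, had a log2 ratio of -3.71 in the control virus pair and 1.31 in the knockdown-labelled pair. In the control virus pair it was at 6.78 FPKM in OGD and 101 FPKM in normal culture, and in the knockdown-labelled pair at 28.8 FPKM in OGD and 10.99 FPKM in normal culture. Rgs16, a regulator of G protein signalling, had -2.07 and 1.49 in the same order. Slc25a30, a mitochondrial carrier gene, had -3.63 and 1.70, and the zinc importer gene Slc39a10 had -2.34 and 1.35. In all 4 genes the normal library with the control virus was the highest of the 4 libraries.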

How the results depend on the processing

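No paired analysis was possible because each group had 1 library, and no replicate could be left out. The alternatives were a pseudocount of 0.1, no filter, a mean of at least 5 FPKM, library-scaled counts, TMM, median-of-ratios, equal FPKM sums, removal of the length trend, and leaving out small RNAs, predicted genes and pseudogenes. The count of higher genes was 939 with a mean of at least 5 FPKM, where 8336 genes were left, and no other alternative moved either count by more than 1.5 times. No named gene past 2-fold changed sign. Of 300 named genes past 2-fold, 258 stayed past it in the same direction in every alternative run that kept them. List medians near 0, among them iron handling (-0.07, 0.10 with TMM), p53 targets (-0.11, 0.16), respiratory chain (-0.10, 0.06), proteasome (-0.07, 0.10), ubiquitin (-0.04, 0.24) and insulin signalling (-0.21, 0.16), changed sign with scaling. The immediate early list had 0.24, and -0.23 at 5 FPKM or more.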

Other observations

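Of 16 clock genes compared 3 were higher and 5 lower, shares near those over all genes. Bhlhe41, a repressor in the clock loop, was at 29.5 FPKM in OGD and 1.60 FPKM in normal culture, 18.5-fold higher (16.02 to 21.4), and Ciart, another clock repressor, was 8.15-fold higher (6.46 to 10.4). The output factor genes Dbp and Tef were 6.54-fold and 3.72-fold lower, and Per1 was at 5.81 FPKM in OGD and 21.5 FPKM in normal culture.

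Polyamine genes had 2 of 10 higher and 4 lower. Amd1, which makes the aminopropyl donor, was 4.65-fold higher and Srm, spermidine synthase, 2.49-fold. Oaz2, an antizyme that lowers ornithine decarboxylase, was at 18.7 FPKM in OGD and 214 FPKM in normal culture, 11.4-fold lower (10.5 to 12.3), and Sat1, which acetylates polyamines for export, was 5.24-fold lower.

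Long noncoding RNAs that stay in the nucleus or host small nucleolar RNAs had 5 of 15 higher and 4 lower. Neat1, the scaffold of paraspeckles, was at 178 FPKM in OGD and 35.8 FPKM in normal culture, 4.96-fold higher (4.78 to 5.15). Malat1, a nuclear speckle RNA, was 5.87-fold higher and Snhg15 7.21-fold, while Snhg18 was 6.19-fold lower.

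A total of 12 genes were under 1 FPKM in normal culture and at 10 FPKM or more in OGD, and 22 were under 1 FPKM in OGD and at 10 FPKM or more in normal culture. These limits were chosen after the data were seen. The first group held Gsta1, Zbtb2, Impact, Slc30a1 and Cryba4, the last on 177 expected counts in OGD and 3 in normal culture, and also Tiparp at 12.95 FPKM in OGD and 0.77 FPKM in normal culture. The second held Nos2, Pdgfb and Ccng2, the last at 0.78 FPKM in OGD and 14.9 FPKM in normal culture.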
